A study of Mus musculus with 2 samples.

Results

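The genes described here are 10 heat shock proteins and chaperones, taken by their symbols from the 31053 genes of 2 single-cell libraries of mouse cortical microglia. The heat shock response raises a few of them steeply, and these are called inducible here: Hspa1a and Hspa1b, which encode the inducible cytosolic Hsp70, its J-domain partner Dnajb1, and Hsp90aa1, the inducible cytosolic Hsp90. The other 6 serve cells at rest and are called constitutive: Hspa8 (the constitutive cytosolic Hsp70), Hsp90ab1 (the constitutive cytosolic Hsp90), Dnaja1 (a cytosolic J-domain partner of Hsp70), Hspa5 (BiP, the Hsp70 of the endoplasmic reticulum, ER), and Hspd1 with Hspe1 (the Hsp60 and Hsp10 of mitochondria). All 10 symbols were found in both libraries.

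Both libraries came from male 5xFAD hemizygous mice on C57BL/6J, a model in which mutant human transgenes are expressed in neurons from the Thy1 promoter and amyloid builds up in the brain, aged 5.5 months when sampled. Every mouse received Visudyne, a light-activated drug, as 5 uL into the cisterna magna, first at 4 months of age and again 3 weeks later, and cells were taken 3 weeks after that. In the control library Visudyne was given alone, and in the photoconversion library each injection was followed by 5 steps of 689 nm light through the skull, described by the submitters as non-thermal and meant to ablate meningeal lymphatic vessels. Singlets negative for SYTOX and Ly6G and positive for CD45 and CD11b were sorted and run on 10x Genomics Chromium, with 3 mice pooled into the 1 library of each group, so there is no replicate and no test, and the intervals below cover counting error only.

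Molecular chaperones hold and refold client proteins. The cytosolic Hsp70 and Hsp90 systems act in sequence, and heat shock factor 1 raises the inducible members under proteotoxic stress. The ER runs a separate programme, the unfolded protein response, whose sensors are bound by BiP. In microglia, brisk expression of heat shock and immediate-early genes is also a known mark of warm enzymatic dissociation and sorting.

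Barcodes were kept from 200 detected genes upwards and up to 10% mitochondrial UMIs (unique molecular identifiers, the counted molecules): 555 of 2000 in the control library and 317 of 2000 in the photoconversion library. They held 2422711 and 1816177 UMIs, with medians of 2670 and 3410 UMIs per cell. All 10 microglial markers were detected in both libraries, and 98.4% and 99.1% of kept cells had at least 3 UMIs of them. Cells were split by raw UMIs of Cst7, which marks the disease-associated state, and P2ry12, which marks resting microglia: 207 control and 157 photoconversion cells had more Cst7, 290 and 133 had more P2ry12, and 58 and 27 with equal counts were left out of state comparisons. Of kept cells, 37.3% (control) and 49.5% (photoconversion) were Cst7>P2ry12 cells, which were deeper (medians of 4655 and 5852 UMIs against 2206.5 and 2739). No barcode was kept in both libraries, although 27 of all barcodes were shared. Levels are in CPM, the UMIs of a gene among the summed cells scaled to a total of 1000000 UMIs.

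Hspa1a and Hspa1b, the most heat-sensitive members, were almost silent in both libraries. They lie on GRCm38 chr17:34969190-34972156 and chr17:34956436-34959238, both on the minus strand, and are near-identical: their coding sequences match at 99.6% of 1926 aligned bases, so reads from the coding part may not tell them apart, while only 53 bases aligned between the 810 and 643 bases after the stop codons. Their RefSeq promoter windows on GRCm38.p6 (chr17:34972157-34972406 and chr17:34959239-34959488, minus strand, the 250 bases before the start site) are shown because so few bases separate the pair. Capitals mark the 3 bases that differ.
Hspa1a: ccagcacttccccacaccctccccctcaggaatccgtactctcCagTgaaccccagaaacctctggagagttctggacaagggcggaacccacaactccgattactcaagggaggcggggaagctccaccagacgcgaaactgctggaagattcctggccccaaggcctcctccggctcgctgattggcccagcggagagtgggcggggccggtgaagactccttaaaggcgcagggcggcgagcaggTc
Hspa1b: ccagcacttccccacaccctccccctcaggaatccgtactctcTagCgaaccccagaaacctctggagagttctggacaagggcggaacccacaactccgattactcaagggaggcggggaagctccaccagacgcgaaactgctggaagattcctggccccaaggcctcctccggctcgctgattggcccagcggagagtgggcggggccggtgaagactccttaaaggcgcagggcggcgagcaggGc
Each window held 1 heat shock element core of the form GAANNTTC, 104 bases before the start. That form, or TTCNNGAA, was found on either strand in 15.1% of 32851 RefSeq promoter windows of 300 bases. The windows are a description and show no binding.

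The control library held 11 Hspa1a UMIs and the photoconversion library 0. Of those 11, 10 came from 1 control cell with 10047 UMIs, which also had 2 Hspa1b and 21 Hspa8 UMIs, 2 Fos and 5 Jun UMIs, and none of Dnajb1, Hsp90aa1, Hsph1 or Hspb1. Hspa1b had 5 UMIs in 4 control cells and 0 in the photoconversion library. A UMI of Hspa1a was found in 2 of 555 control cells (0.360%, exact 95% interval 0.0437 to 1.30%) and in 0 of 317 photoconversion cells, where a count of 0 allows a share of cells with a UMI of up to 0.946% (3 of 317). Since 1 cell supplied nearly all Hspa1a, no fold is read from the sums.

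Dnajb1, which delivers clients to Hsp70 and is itself heat inducible, had 69 UMIs (28.5 CPM) in the control and 31 UMIs (17.1 CPM) in the photoconversion library, a photoconversion to control ratio of 0.599 (95% interval 0.379 to 0.928). No cell held more than 3 of its UMIs. Hsp90aa1 had 347 UMIs (143 CPM) and 228 UMIs (126 CPM), a ratio of 0.877 (0.738 to 1.04), whose interval includes equal levels. Summed, the 4 inducible members reached 178 CPM in the control and 143 CPM in the photoconversion library, a ratio of 0.800 (0.683 to 0.935). Hsp90aa1 supplied 347 of the 432 control and 228 of the 259 photoconversion UMIs. By state the sum had ratios of 0.917 (0.754 to 1.11) in Cst7>P2ry12 cells and 0.689 (0.5045 to 0.932) in P2ry12>Cst7 cells. Both Dnajb1 intervals within states include equal levels (0.414 to 1.41 and 0.221 to 1.03). The control sum of 432 UMIs includes 16 of Hspa1a and Hspa1b, 12 of them from 1 cell. In the median kept cell of either library the inducible members supplied 0% of UMIs, and the 90th percentile was 0.0450% (control) and 0.0383% (photoconversion) of UMIs.

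**Figure D1:**
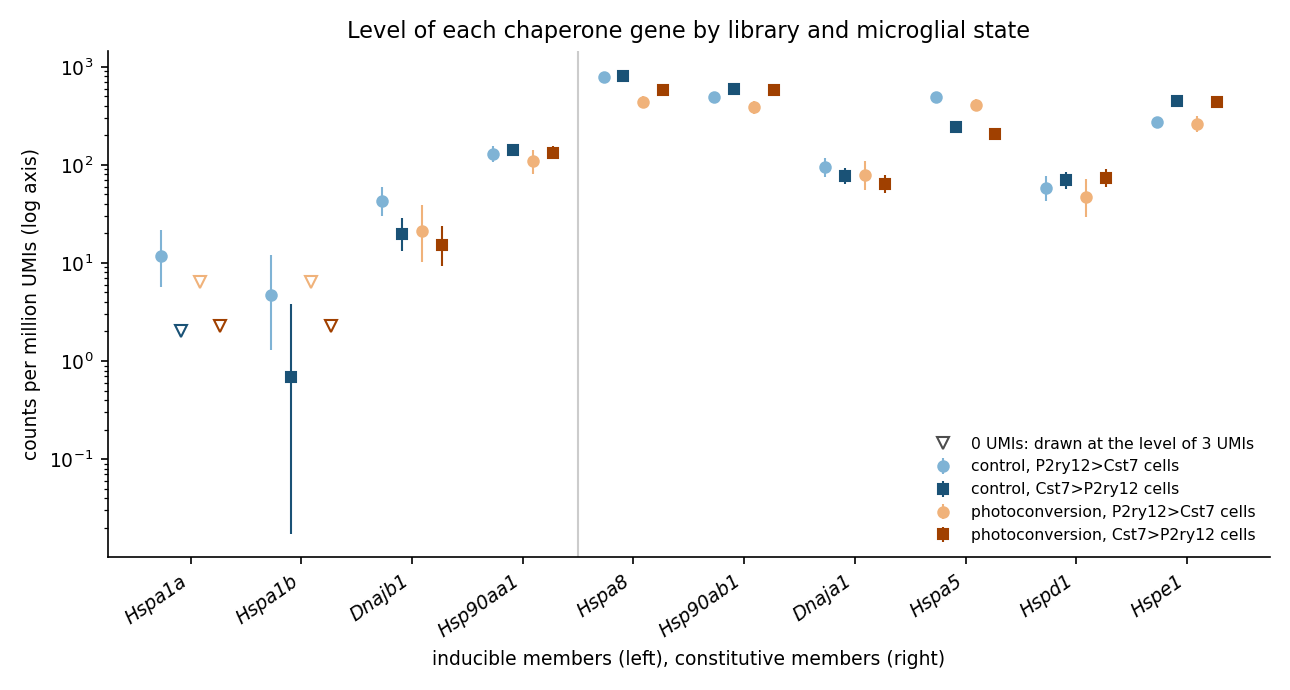
Level of the 10 chaperone genes, in CPM on a log axis, for P2ry12>Cst7 cells (circles) and Cst7>P2ry12 cells (squares) of the control (blue) and photoconversion (brown) libraries. Bars are exact 95% Poisson intervals, and open triangles mark a count of 0 drawn at the level of 3 UMIs. Hspa8 is lowest in P2ry12>Cst7 cells of the photoconversion library, and Hspa5 is lower in the squares than in the circles of both libraries.

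Hspa8 was the member with the clearest gap between the libraries. It had 1932 UMIs (797 CPM, 762 to 834) in the control library and 980 UMIs (540 CPM) in the photoconversion library, a ratio of 0.677 (0.626 to 0.731). Hspa5 was also lower, with 814 UMIs (336 CPM) against 468 UMIs (258 CPM) and a ratio of 0.767 (0.683 to 0.860). The Hspa8 ratio stayed below 1 in all 17 alternative settings tried (0.513 to 0.705), and the Hspa5 ratio in 16 of 17.

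The mitochondrial pair and Hsp90ab1 lay near equal levels. Hspe1 had 379 CPM in the control and 399 CPM in the photoconversion library (ratio 1.05, 0.953 to 1.16), and Hspd1 had 65.6 and 69.4 CPM (1.06, 0.830 to 1.34). Hsp90ab1 had 553 and 527 CPM (0.953, 0.876 to 1.04). The cytosolic J-domain gene Dnaja1 had 83.8 and 68.8 CPM (0.821, 0.652 to 1.03), an interval that includes equal levels.

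Of the 8 members with at least 100 UMIs over both libraries, 3 (Hspa8, Hspa5 and Dnajb1) had a library ratio below 0.8, the fold set here for a lower level, and 0 had a ratio above its inverse, the fold set for a higher one. Over all 4009 genes with as many UMIs, 16.3% were lower and 7.36% were higher by that fold. The members' median log2 ratio was -0.24, beside -0.06 over all those genes. The 6 constitutive members summed to 2215 CPM in the control and 1862 CPM in the photoconversion library, a ratio of 0.840 (0.805 to 0.878), and the intervals of the inducible and constitutive sums overlap. Hspa8 alone supplied 1932 of the 5367 control and 980 of the 3381 photoconversion UMIs of the constitutive sum.

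The libraries differed in the mix of states, so the same ratios were taken within each state. In Cst7>P2ry12 cells Hspa8 had 802 CPM in the control and 579 CPM in the photoconversion library, a ratio of 0.723 (0.659 to 0.793). In P2ry12>Cst7 cells the levels were 785 and 436 CPM, a ratio of 0.556 (0.472 to 0.651). Hspa8 was therefore lower in the photoconversion library in both states, and its 2 intervals do not overlap, but the difference between the states was not tested.

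Hspa5 gave ratios of 0.837 (0.712 to 0.983) in Cst7>P2ry12 cells and 0.831 (0.696 to 0.989) in P2ry12>Cst7 cells, both nearer to 1 than over all kept cells. Each of these Hspa5 ratios stayed below 1 in 16 of 18 alternative settings: the first ran from 0.559 to 1.60 and the second from 0.763 to 1.16, and both were above 1 after thinning to 500 UMIs (1.51 and 1.16) and without cells carrying markers of any other type (1.60 and 1.06). Hsp90ab1 had 587 and 583 CPM in Cst7>P2ry12 cells (0.993, 0.899 to 1.10), and 487 and 385 CPM in P2ry12>Cst7 cells (0.791, 0.660 to 0.945). Hspe1 stayed near equal levels in each state, at 0.984 and 0.970. Among members with at least 100 UMIs in the comparison, 1 of 7 in Cst7>P2ry12 cells (Hspa8) and 2 of 6 in P2ry12>Cst7 cells (Hspa8 and Hsp90ab1) were lower past that fold, beside 11.9% and 16.5% of all genes, and 0 were higher, beside 8.22% and 7.9%.

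**Figure D2:**
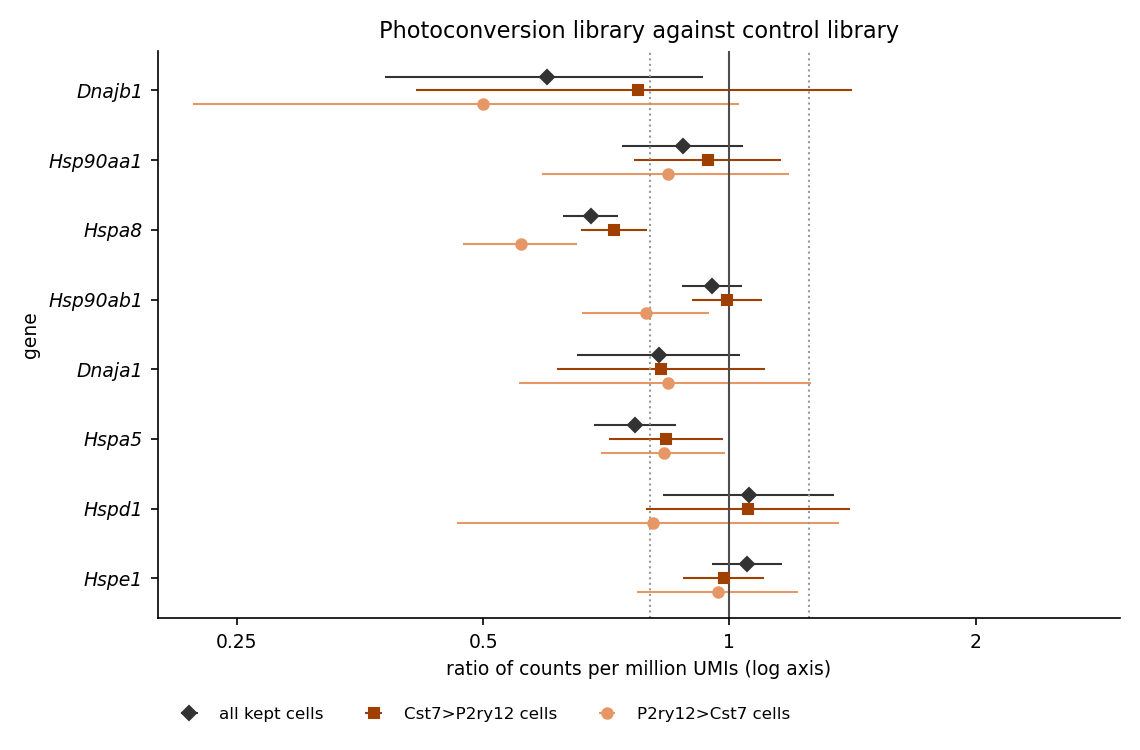
Ratio of the photoconversion to the control library, on a log axis, for the 8 members with at least 100 UMIs, over all kept cells (diamonds), Cst7>P2ry12 cells (squares) and P2ry12>Cst7 cells (circles). Bars are exact 95% intervals for counting error, the solid line is equal levels and the dotted lines are 0.8 and its inverse. All 3 intervals of Hspa8 lie below 1, while those of Hspe1 and Hspd1 include it.

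Other measured differences lay alongside the library gap. The median share of ribosomal protein UMIs was 17.2% in control and 21.4% in photoconversion cells. Border macrophage markers were detected at 5 of 6 genes in the control (36.3 CPM, Lyve1 at 0) and 2 of 6 in the photoconversion library (6.61 CPM, with Cbr2, F13a1, Cd163 and Lyve1 at 0). Monocyte markers stood at 91.2 CPM (5 of 6 genes, Vcan at 0) and 24.8 CPM (4 of 6, Chil3 and Vcan at 0). Of the 221 control UMIs of monocyte markers, 146 lay in cells with equal Cst7 and P2ry12 counts. Kept cells with at least 3 UMIs were 1.44% and 1.26% for monocyte and 0.721% and 0% for border macrophage markers. In the deeper photoconversion cells shares were higher for astrocyte (5.946% and 11.99%), neutrophil (7.568% and 12.3%) and endothelial and mural markers (41.98% and 52.37%). In that order, levels were 203.1 and 196, 163 and 161.3, and 1045 and 1067 CPM. Without cells carrying at least 3 UMIs of any list of other cell types, which left 283 control and 120 photoconversion cells, Hspa8 had a ratio of 0.513 and Hspa5 of 0.967. With Bsg and Csf3r taken off the lists because most or many kept cells carry them, a change made after seeing the data, Hspa8 had a ratio of 0.662 and Hspa5 of 0.758.

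Depth was then equalised by drawing 1000 UMIs at random from each cell, which left out 116 control and 45 photoconversion cells with fewer. An Hspa8 UMI was found in 219 of 439 control cells (49.9%, exact 95% interval 45.1 to 54.7%) and in 96 of 272 photoconversion cells (35.3%, 29.6 to 41.3%). Before thinning the shares had been 67.6% and 63.4%, closer together in libraries of unequal depth. In P2ry12>Cst7 cells the thinned shares were 47.0% and 26.9%, and in Cst7>P2ry12 cells 53.0% and 43.0%. These shares come from 1 draw, and the Hspa8 shares expected over all possible draws were 48.6% and 34.4% of all cells.

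The Hspa5 share divided by state, with like values in the 2 libraries. At 1000 UMIs it was found in 40.5% of control and 42.0% of photoconversion P2ry12>Cst7 cells, and in 18.6% and 19.7% of Cst7>P2ry12 cells. Without thinning, the shares were 62.8% and 64.7% against 54.6% and 58.6%, a narrower gap, in cells of unequal depth. Over all draws the Hspa5 shares were 38.2% and 36.3% against 19.5% and 17.5%. Hspe1 went the other way, at 19.55% and 18.8% of P2ry12>Cst7 against 33.7% and 35.4% of Cst7>P2ry12 cells over all draws. In the same order, Hsp90ab1 had 32.0% and 28.5% against 41.75% and 40.9%, and Hspd1 5.24% and 2.99% against 6.555% and 7.05%. Dnaja1 had 7.83% and 8.17% against 7.61% and 6.15%. Among the inducible members the single draw was far from the average over all draws. Hsp90aa1 was found in 10.0% of control and 5.15% of photoconversion cells in the draw, and in 10.8% and 8.58% over all draws. Dnajb1 was found in 17 of 439 and 2 of 272 cells in the draw, and in 2.94% and 1.72% of cells over all draws. In the draw, no thinned cell of either library held an Hspa1a or Hspa1b UMI. Every cell type expresses Hspa8, so no cell type in the libraries can serve as a background for free RNA.

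**Figure D3:**
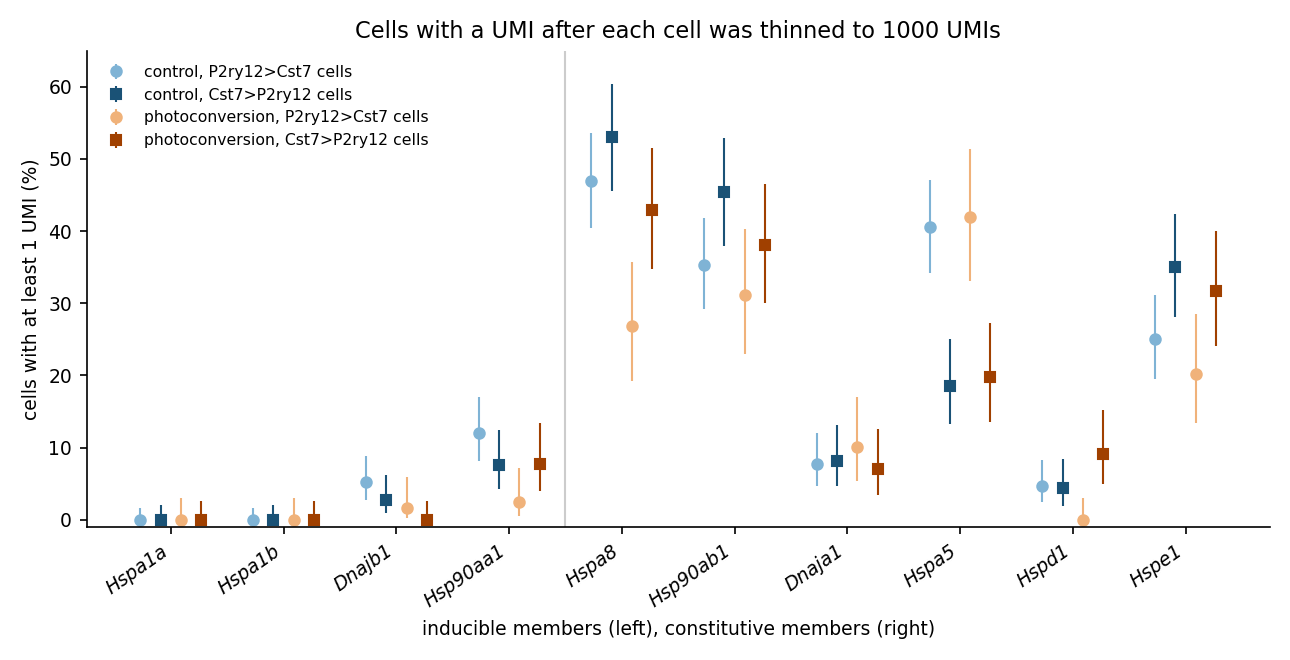
Share of cells with at least 1 UMI of each member after thinning every cell to 1000 UMIs, in percent, for P2ry12>Cst7 cells (circles) and Cst7>P2ry12 cells (squares) of the control (blue) and photoconversion (brown) libraries, with exact 95% binomial intervals. The Hspa8 share is 26.9% in photoconversion P2ry12>Cst7 cells, and the Hspa5 squares lie at 18.6% and 19.7% where its circles lie at 40.5% and 42.0%.

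Barcodes that were not kept, 1445 (control) and 1683 (photoconversion) with medians of 90 and 60 UMIs, did not show the Hspa8 gap. They included 32 and 39 barcodes with at least 1000 UMIs. Their median mitochondrial shares were 14.9% and 8.89%, and Malat1 stood at 14641 and 8453 CPM, so these pools were not alike. Their Hspa8 level was 516 CPM (431 to 613) in the control and 526 CPM (435 to 630) in the photoconversion library, a ratio of 1.02 (0.787 to 1.32). Kept control cells stood above that level, at 797 CPM, and kept photoconversion cells close to it, at 540 CPM. Hspa5 had 352 and 301 CPM in barcodes that were not kept (0.856, 0.614 to 1.19). Dnaja1 had 120 and 49.4 CPM there, from 30 and 11 UMIs (0.412, 0.186 to 0.846), a ratio below that of kept cells with an interval that includes it. Dnajb1 had 15.99 and 22.5 CPM there, from 4 and 5 UMIs, so its kept photoconversion level of 17.1 CPM did not stand above that of barcodes not kept.

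The states within a library differed in opposite directions for the ER member and the mitochondrial member Hspe1. Hspa5 was lower in Cst7>P2ry12 than in P2ry12>Cst7 cells: 245 against 491 CPM in the control library, a ratio of 0.499 (0.432 to 0.576), and 205 against 408 CPM in the photoconversion library, a ratio of 0.503 (0.416 to 0.608). Both libraries gave the same value within counting error, and the ratio stayed below 1 in each of the 18 alternative settings in each library (0.281 to 0.654 and 0.366 to 0.640). Within each library, the P2ry12>Cst7 interval lay wholly above that of the Cst7>P2ry12 cells (445 to 541 against 221 to 272 CPM in the control).

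Hspe1, the mitochondrial co-chaperonin, went the other way, with 449 against 271 CPM in the control (1.66, 1.42 to 1.93) and 442 against 263 CPM in the photoconversion library (1.68, 1.38 to 2.06), above 1 in each of 18 settings in each library. Its partner Hspd1 had 70.2 against 58.3 CPM (1.20, 0.849 to 1.73) and 74.0 against 47.0 CPM (1.57, 0.983 to 2.63), and both intervals include equal levels. The 2 genes lie head to head on GRCm38 chromosome 1, Hspd1 on the minus strand and Hspe1 on the plus strand, with start sites 111 bases apart inside overlapping gene bounds. Reads could also match copies: the annotation names 6 pseudogenes of Hspe1 and 5 of Hspd1, and whether counting used strand is not given in the sources used here.

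The promoter stretches that carry stress motifs are shown for these members of opposite direction. For Hspa5 it is the 250 bases before its RefSeq start site on GRCm38.p6 (chr2:34771840-34772089, plus strand), with the ER stress element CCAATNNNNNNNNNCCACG in capitals, which begins 65 bases before the start and was found on either strand in 0.119% of the 32851 windows. For Hspe1 it is 30 bases between 100 and 71 bases before the start (chr1:55088048-55088077, plus strand), with overlapping heat shock element cores in capitals, 2 of the form TTCNNGAA and 1 of the form GAANNTTC. This stretch also lies in a RefSeq window of Hspd1.
Hspa5: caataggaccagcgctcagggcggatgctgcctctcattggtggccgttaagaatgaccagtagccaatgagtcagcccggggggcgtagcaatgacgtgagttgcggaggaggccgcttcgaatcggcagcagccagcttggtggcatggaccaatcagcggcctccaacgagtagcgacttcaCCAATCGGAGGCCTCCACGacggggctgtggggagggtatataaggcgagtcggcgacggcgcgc
Hspe1: gccacggtccgTTCTAGAACCTTCCGGAAg
Windows were found for 7 of the 10 members. No ER stress element of that form lay in the windows of the other 6, and Dnaja1 had 1 GAANNTTC core in 1 of its 3 windows. Neither window of the inducible Dnajb1 held a heat shock element core of either form.

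The cytosolic members divided less. Hsp90ab1 was higher in Cst7>P2ry12 cells, with 587 against 487 CPM in the control (1.21, 1.07 to 1.36) and 583 against 385 CPM in the photoconversion library (1.51, 1.29 to 1.79). Hspa8 was at 802 against 785 CPM in the control (1.02, 0.927 to 1.12) and at 579 against 436 CPM in the photoconversion library (1.33, 1.14 to 1.56). With levels scaled to total UMIs, the Hspa8 interval included equal levels in the control and lay above them in the photoconversion library. The difference between the libraries was not tested.

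Hsp90aa1 had ratios of 1.09 (0.858 to 1.39) in the control and 1.22 (0.887 to 1.70) in the photoconversion library. Dnaja1 had ratios of 0.827 (0.615 to 1.12) and 0.810 (0.544 to 1.23). With levels scaled to total UMIs, each of these intervals includes equal levels. Dnajb1 had 36 UMIs (42.9 CPM) in P2ry12>Cst7 and 29 UMIs (19.8 CPM) in Cst7>P2ry12 control cells, a ratio of 0.461 (0.273 to 0.774), and 10 and 20 UMIs in the photoconversion library, a ratio of 0.714 (0.319 to 1.71). Summed, the inducible members gave 0.854 (0.695 to 1.05) and 1.13 (0.847 to 1.54), and the constitutive members 1.02 (0.963 to 1.08) and 1.20 (1.11 to 1.31). Of the 159 inducible UMIs in control P2ry12>Cst7 cells, 14 were of Hspa1a or Hspa1b, and 12 of those came from 1 cell. That cell was placed in the P2ry12>Cst7 state by only 2 P2ry12 against 1 Cst7 UMIs, among its 10047 UMIs.

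**Figure D4:**
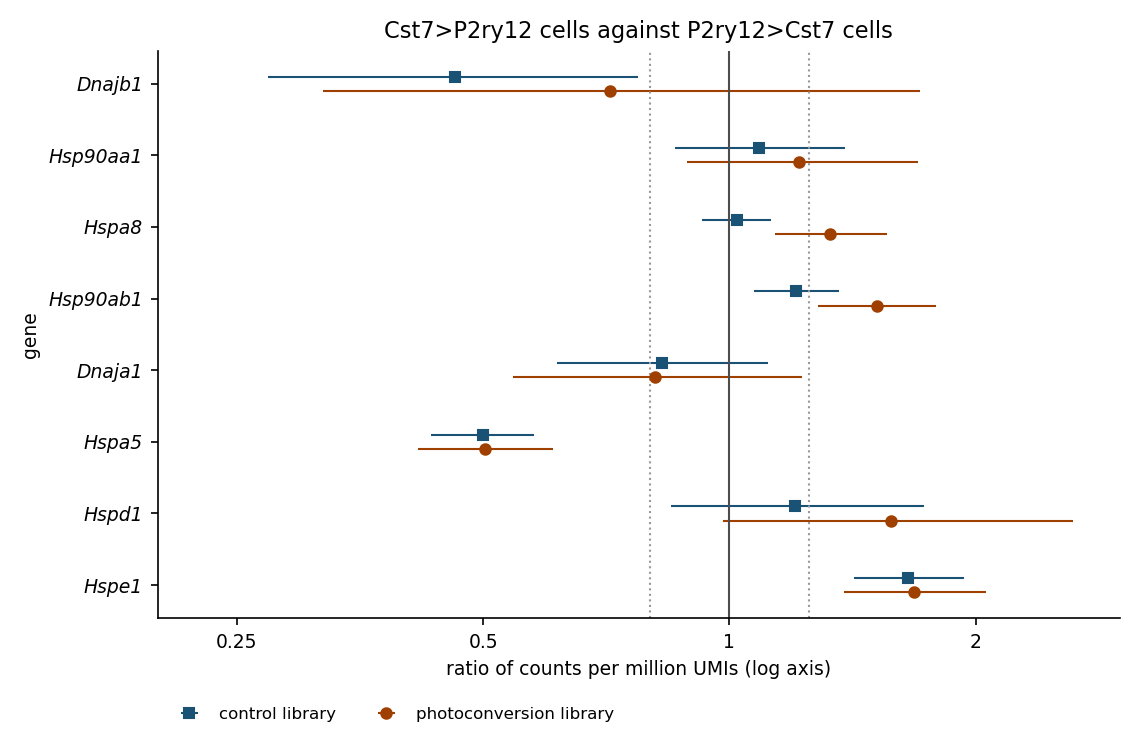
Ratio of Cst7>P2ry12 to P2ry12>Cst7 cells, on a log axis, in the control (squares) and photoconversion (circles) libraries for the 8 members with at least 100 UMIs over both libraries. Bars are exact 95% intervals for counting error, the solid line is equal levels and the dotted lines are 0.8 and its inverse. Hspa5 lies near 0.50 and Hspe1 near 1.7 in both libraries.

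Of the 7 members with at least 100 UMIs in each library's state comparison, 1 (Hspe1) was higher and 1 (Hspa5) lower past the same fold in both libraries, beside 21.7% and 28.5% of 1864 genes. In the control alone 1 was higher and 1 lower, beside 22.8% and 42.2%, and in the photoconversion library 4 were higher and 1 lower, beside 29.4% and 34.6%. Scaling decides much of this background. TMM scaling (trimmed mean of M values), in place of total UMIs, moved every state ratio up by 0.36 (control) and 0.34 (photoconversion) on the log2 scale, with 40.7% of genes higher and 22.5% lower in the control and 47.8% and 20.8% in the photoconversion library. Under it Hspa5 remained lower (0.643 and 0.635) and Hspe1 higher (2.13 and 2.12), but Dnaja1 passed to 1.06 and 1.02 and the inducible sum in the control to 1.10. Of the 7 members, 5 were higher and 1 lower past the fold in each library under TMM scaling. Control ratios rose to 1.31 for Hspa8, 1.55 for Hsp90ab1 and 1.40 for Hsp90aa1, and photoconversion ratios to 1.68, 1.91 and 1.54.

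The states also differed in other measures. The median ribosomal share was 25.0% and 25.3% in Cst7>P2ry12 cells of the control and photoconversion libraries, and 9.01% and 13.1% in P2ry12>Cst7 cells. Malat1, a nuclear RNA, stood at 6456 and 7561 CPM against 24797 and 24621 CPM. Cells with at least 3 UMIs of the 8 endothelial and mural markers, most of them carrying Bsg, were 59.4% and 65.6% of Cst7>P2ry12 and 35.2% and 44.4% of P2ry12>Cst7 cells. Without cells of the narrower marker lists, Hspa5 had ratios of 0.520 and 0.510 and Hspe1 of 1.64 and 1.63. Without cells of any full marker list of other cell types, Hspa5 had ratios of 0.281 and 0.426 and Hspe1 of 1.77 and 2.28. The part of these measures in the state ratios was not tested.

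Most genes of the wider ER programme lay on the same side as Hspa5. Counts of genes and medians of lists are on ratios with 0.5 UMIs added to each side. Of 15 ER chaperone and unfolded protein response genes with at least 100 UMIs in each library, 13 in each library were lower in Cst7>P2ry12 cells, 9 of them past the fold set above in each, and 8 past it in both. With nothing added to the sums, 12 were lower in the photoconversion library, since Atf4 lay at 1.01. Over all genes, 61.4% (control) and 53.0% (photoconversion) were lower, 42.2% and 34.6% past the fold, and 28.5% past it in both. The list's median log2 ratios were -0.56 and -0.55, beside -0.19 and -0.05 over all genes with as many UMIs, and both medians stayed below 0 in each of 18 settings. Under TMM scaling 8 and 9 of the 15 were lower, with medians of -0.20 and -0.21, beside 0.17 and 0.29 over all genes, and 6 and 7 were lower past the fold, beside 22.5% and 20.8% of all genes. Herpud1, a target of the unfolded protein response that acts in ER-associated degradation, had 51.1 against 188 CPM in the control and 51.9 against 184 CPM in the photoconversion library, ratios of 0.272 (0.204 to 0.360) and 0.282 (0.202 to 0.393). Xbp1, a transcription factor of the response, had ratios of 0.580 and 0.566, and Dnajb9, an ER J-domain protein, 0.398 and 0.522.

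Ratios of the ER folding genes were spread. Calr (calreticulin) had ratios of 0.848 (0.769 to 0.936) and 0.802 (0.703 to 0.916), both above 1 under TMM scaling, Pdia3 (a disulfide isomerase) of 0.677 and 0.613, Pdia6 of 0.595 (0.504 to 0.702) and 0.534 (0.430 to 0.666), and Pdia4 of 0.584 (0.440 to 0.775) and 0.687 (0.460 to 1.04). The gene above 1 in both libraries was Sdf2l1, an ER stress-inducible protein, at 1.30 (1.12 to 1.51) and 1.44 (1.18 to 1.76). Herpud1, Xbp1, Dnajb9, Pdia6, Sdf2l1 and Atf4 are named after their values were seen.

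**Figure D5:**
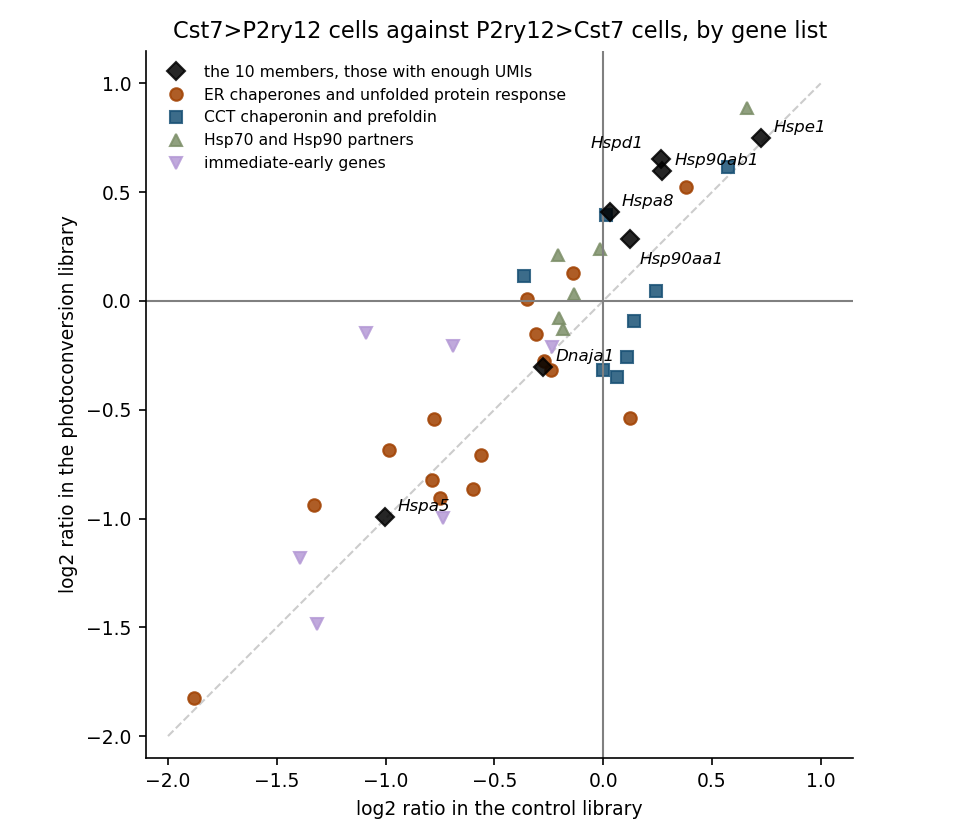
Log2 ratio of Cst7>P2ry12 to P2ry12>Cst7 cells in the control library (horizontal axis) and the photoconversion library (vertical axis) for genes with at least 100 UMIs in both comparisons, by gene list. Black diamonds are members, circles ER genes, squares CCT and prefoldin, upward triangles Hsp70 and Hsp90 partners and downward triangles immediate-early genes, and the dashed line is equal ratios. Hspa5 lies at -1.0 and -0.99 among the ER genes, and Hspe1 at 0.73 and 0.75.

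Immediate-early genes, which are raised within minutes by stimulation or dissociation, did not all lie on one side. Those with at least 100 UMIs were lower in Cst7>P2ry12 cells, 7 of 7 (control) and 6 of 6 (photoconversion), beside 61.4% and 53.0% of all genes. Of these, 6 and 3 had a ratio below 0.8, beside 42.2% and 34.6% of all genes, and the median log2 ratios were -0.74 and -0.61. Some genes of the list with fewer UMIs, named after their values were seen, lay on the other side. Atf3, a stress-responsive transcription factor, was at 4.71 (2.35 to 10.7) from 74 and 9 UMIs in the control and at 2.80 (1.19 to 8.004) from 47 and 6 UMIs in the photoconversion library. Egr2 had 26 against 5 and 17 against 1 UMIs, and Klf4 22 against 6 and 12 against 1. These raw counts come from unequal totals, 1467008 against 840238 UMIs in the control and 1309838 against 467566 in the photoconversion library. Under TMM scaling 6 of 7 and 3 of 6 were lower, with medians of -0.37 and -0.27. Btg2, an antiproliferative gene, had ratios of 0.403 and 0.357, Ier5 of 0.600 and 0.501, and Jund, an AP-1 subunit, of 0.849 and 0.864, both above 1 under TMM scaling.

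CCT chaperonin and prefoldin genes, which fold actin and tubulin, were higher for 7 of 12 (control) and 5 of 9 (photoconversion) genes (median log2 ratios 0.02 and 0.04), beside a lower level for 61.4% and 53.0% of all genes. With nothing added to the sums the control count was 8 of 12, since Cct8 had equal levels. Their most counted gene, Pfdn5, was at 1.49 (1.34 to 1.66) and 1.53 (1.34 to 1.75), and Cct4 at 1.18 and 1.03. Hsp70 and Hsp90 partner genes were lower for 9 of 11 (control) and 2 of 7 (photoconversion) genes (2 of 11 and 0 of 7 under TMM scaling, where 980 of 2479 and 635 of 1871 genes were lower). Among them were Bag1, an Hsp70 nucleotide exchange factor, at 1.58 and 1.85 and Fkbp5, an Hsp90 co-chaperone, at 0.501 and 0.513.

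Over all kept cells, the other lists leaned lower in the photoconversion than in the control library, as did all genes. Over all genes 60.5% were lower, 16.3% with a ratio below 0.8 and 7.36% higher by the same fold. ER genes were lower in 14 of 17 (3 with a ratio below 0.8), CCT and prefoldin genes in 9 of 13 (3), partner genes in 11 of 15 (4) and immediate-early genes in 8 of 9 (2), and 0 genes of these 4 lists were higher by that fold. Their median log2 ratios were -0.18, -0.21, -0.08 and -0.23, beside -0.06 over all genes. Within Cst7>P2ry12 cells these medians were -0.06, -0.21, -0.13 and 0.0004, beside -0.02. Within P2ry12>Cst7 cells they were -0.17, -0.08, -0.25 and -0.12, beside -0.05. Immediate-early genes were lower in 4 of 8 and 5 of 6, beside 53.1% and 58.1% of all genes. Lower past the fold in the first state were 2 of 16 ER, 3 of 12 CCT and prefoldin, 3 of 12 partner and 2 of 8 immediate-early genes, beside 11.9% of all genes. In the second, 2 of 15, 3 of 7, 2 of 7 and 2 of 6 were, beside 16.5%. Higher past the fold were 1 of 12 partner genes in the first state, beside 8.22% of all genes. In the second, 1 of 15 ER and 1 of 6 immediate-early genes were higher past it, beside 7.9%. Among the named genes, again over all kept cells, Pdia4 had 85.8 CPM in the control and 64.4 CPM in the photoconversion library (0.750, 0.593 to 0.946). Pdia3 had 550 and 424 CPM (0.772, 0.706 to 0.844) and Calr 718 and 597 CPM (0.832, 0.771 to 0.898). Pfdn6 stood at 71.0 and 48.5 CPM (0.683, 0.522 to 0.887), Cct7 at 0.758 (0.604 to 0.948), and Pfdn5 on the other side at 1.11 (1.04 to 1.19).

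Partner genes St13 and Bag1, both Hsp70 cofactors, had library ratios of 0.887 (0.755 to 1.04) and 0.990 (0.860 to 1.14), and Ppid and Fkbp5, both Hsp90 co-chaperones, of 0.683 (0.463 to 0.993) and 0.718 (0.481 to 1.06). Of 8 mitochondrial chaperone and protease genes 3 had enough UMIs: Hspa9 (the mitochondrial Hsp70) at 1.04, Grpel1 (its nucleotide exchange factor) at 0.915 and Clpp (a protease subunit) at 0.861, each with an interval that includes 1. Of the 11 other stress-inducible chaperones none had 100 UMIs. Chordc1 had 57 and 41 UMIs (0.959, 0.626 to 1.46), and Hspb1, a small heat shock protein, 46 and 18 UMIs (0.522, 0.285 to 0.918). Hspb1 went in opposite directions by state. Cst7>P2ry12 cells held 8 control and 17 photoconversion UMIs of it (2.38, 0.973 to 6.37), and P2ry12>Cst7 cells 14 and 0. The remaining control UMIs of Hspb1 lay in cells with equal Cst7 and P2ry12 counts. Summed, the 11 genes held 121 and 90.8 CPM. Among the 9 immediate-early genes with at least 100 UMIs, Klf2 and Btg2 had the lowest library ratios, at 0.409 (0.256 to 0.636) and 0.786 (0.621 to 0.991), and Jund and Ier5 lay at 0.968 and 1.07. With fewer UMIs, Dusp1 had 42 control and 7 photoconversion UMIs (0.222, 0.0843 to 0.4995), Nr4a1 21 and 1, and Fos 16 and 0; these were named after their values were seen.

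From cell to cell the correlations among members were weak. In cells thinned to 1000 UMIs, Pearson's r between any pair of the 8 counted members lay between -0.07 and 0.10 in the control and between -0.11 and 0.15 in the photoconversion library. These correlations of sparse counts share a library and a depth and are given as a description. UMIs of the counted members were spread over cells: the 5% of cells with the most UMIs of a gene held 26.6% (control) and 24.6% (photoconversion) of Hspa8 UMIs and 44.7% and 46.1% of Hsp90aa1 UMIs.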

How the data were processed

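The authors deposited raw UMI counts for each gene in each barcode. The submitters' processing notes name bcl2fastq, Cell Ranger and mm10, and the version, Cell Ranger 3.0.2, stands in the matrix per the file headers. The end of the transcript that was read and the use of strand are not given in the sources used here. A deposited table of the whole series, with 4000 columns of cells, was not used. Kept barcodes had at least 200 detected genes and at most 10% mitochondrial UMIs. Doublets were not called, and the deepest 5% of cells were left out as an alternative. Counts were summed over cells and divided by all their UMIs. Ratios carry exact conditional binomial 95% intervals, levels exact Poisson ones, and shares of cells exact Clopper-Pearson ones, for counting error only. A count of 0 was given the limit of 3 counts. On simulated data for the library ratio (4009 genes, 200 of them changed) the interval held the true value for 96.1% of unchanged genes. The simulated sums were Poisson counts without spread between cells or mice, so this checks the interval code only. A gene was counted as lower below a ratio of 0.8, or as higher above its inverse, with at least 100 UMIs over both sides; these counts and list medians add 0.5 UMIs to each sum, and single ratios add nothing. Cells were thinned to 1000 UMIs without replacement, seed 1. TMM and median-of-ratios scaling used edgeR 4.0.16 (R 4.3.3) and numpy 2.4.6, and intervals scipy 1.17.1 (python 3.11.15, pandas 2.3.3). Positions came from the GENCODE annotation of GRCm38 and promoter windows from RefSeq on GRCm38.p6.

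The members and gene lists were chosen with earlier results of these data known. Genes named are the members and, from each other list, the 2 with the most UMIs and the 2 with the most extreme library ratio among genes with at least 100 UMIs. Correlations between members were taken on log2(UMIs + 1); the genes most like a member are not reported here. Alternatives were other scalings, equal weight per cell or state, thinning to 500, 1000 or 2000 UMIs, other barcode filters, state rules and gene minimums, and leaving out deep cells, cells rich in members or cells with markers of other types. Added after seeing the data were narrower marker lists (without Bsg and Csf3r), the mean ratio and the expected share of cells over all draws to 1000 UMIs, list counts with nothing added to the sums, and leaving out barcodes found in both libraries. Cct6a was not analysed here.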

Additional observations from a re-analysis of the deposited data

Results flagged for a closer look

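Hspd1, the mitochondrial Hsp60, had library ratios on opposite sides of 1 in the 2 states: 1.06 (0.791 to 1.41) in Cst7>P2ry12 cells, from 103 control and 97 photoconversion UMIs, and 0.807 (0.465 to 1.36) in P2ry12>Cst7 cells, from 49 and 22 UMIs. Both intervals include equal levels, and the difference between the states was not tested.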

How the results depend on the processing

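No paired analysis was possible because each group is 1 library and the result comes from no test. Over 698 values of single members under alternative settings, 576 moved by less than their counting error, 113 moved by more and 9 passed from a ratio past the fold to the other side of 1. Of these only Hspa5 between libraries had 100 UMIs: the Dnajb1 comparisons rest on 49 and 30 UMIs, and their intervals include equal levels. Hspa5 between libraries reached 1.02 after thinning to 500 UMIs. Dnajb1 between libraries in Cst7>P2ry12 cells became 1.06 with equal weight per cell, 1.21 after thinning to 2000 UMIs, 1.34 without cells with other markers and 1.04 as the mean over all draws, and between states in the photoconversion library 1.10, 1.21, 1.35 and 1.08. Hspa1a and Hspa1b summed between states in the control, 1 against 14 UMIs and not read as a fold, became 1.37 (thinned to 500 UMIs) and 2.58 (without cells with other markers). The cause was not tested.

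The inducible sum between libraries, 0.800, was 0.391 after thinning to 1000 UMIs, 0.593 with another seed, 0.719 as the mean over all draws, 0.936 at 500 UMIs, 0.646 without cells with other markers and 0.682 with the narrower lists. The constitutive sum, 0.840, was 0.898 with equal weight per cell, 0.796, 0.880 and 0.795 after thinning to 1000, 500 and 2000 UMIs, and 0.804 with equal weight of the states. Between states in the control, the inducible sum became 0.576 (thinned to 1000), 0.599 (without other markers), 1.10 (TMM) and 1.12 (median of ratios), and the constitutive sum 0.957, 0.930, 1.31 and 1.34. In the photoconversion library the inducible sum became 1.84 (thinned to 1000), 0.696 (2000) and 0.719 (without other markers), and the constitutive sum 1.33 (equal weight), 1.31 (2000), 1.52 (TMM) and 1.53 (median of ratios). Genes with a ratio below 0.8 or above its inverse numbered 950 between libraries, and 1611 (control) and 1197 (photoconversion) between states. With a minimum of 20 UMIs they numbered 3369, 4996 and 4405, with 500 UMIs 80, 388 and 308, past 1.5-fold 197, 1014 and 733, and after thinning to 1000 UMIs 155, 409 and 258.

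Leaving out cells with 3 or more UMIs of any marker list kept only 283 control and 120 photoconversion cells, since Bsg was found in 410 of 555 and 247 of 317 kept cells. Thinned counts of Dnajb1, Hspd1 and Hsp90aa1 are small, and 1 draw moves them more than the counting interval of the sums. With 1 library per group, mice, sorting and library preparation cannot be told apart from treatment.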
